A study of Mus musculus with 8 samples.

Results

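The NADPH oxidase of phagocytes was followed here through 6 of its genes, Cybb, Cyba, Ncf1, Ncf4, Rac1 and Rac2, in granulocytic myeloid-derived suppressor cells (Gr-MDSCs) treated with Dactolisib, Dasatinib or DMSO. The members were the listed genes, and every probe set that the array's annotation assigns to exactly 1 of them was taken, which gave 6 of 18193 such genes and 13 of the 45101 probe sets on the array. Of these, 12 lay among the 30024 probe sets that were bright enough to be tested (the upper 67% by mean signal). The other probe set, Rac1 1437674_at, had log2 signals of 2.82 to 3.02 on the 8 arrays and was not tested.

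Gr-MDSCs resemble immature neutrophils and hold back T cell responses. They came from prostate tumors of castrated male CPPSML mice of 12 to 16 weeks, which carry PB-Cre+, the conditional alleles PtenL/L, p53L/L and Smad4L/L, the reporter mTmGL/+ and luciferase as LSL-LucL/+. The mice had received an enzalutamide diet for 4 weeks. All groups share this genotype, the castration and the diet. Cre is driven by the probasin promoter, which is active in prostate epithelium, so the 3 deletions are aimed at the tumor cells and not at the Gr-MDSCs. The cells were isolated with a density medium and magnetic beads, then kept for 6 h with 0.1 μM Dactolisib (2 arrays), a dual inhibitor of PI3K and mTOR, 0.1 μM Dasatinib (2 arrays), an inhibitor of Src and Abl family kinases, or the solvent DMSO (4 arrays). Whether the arrays of a group came from separate mice or cultures is not given in the sources used here, so p-values cover the spread among the samples at hand, and that spread may be technical. No array of freshly isolated cells or of normal neutrophils was analysed.

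The oxidase moves electrons from cytosolic NADPH across a membrane to oxygen and so makes superoxide, the start of the oxidative burst of neutrophils. Cybb (NOX2, gp91phox) is the catalytic subunit and Cyba (p22phox) its partner in the membrane, together called flavocytochrome b558. Ncf1 (p47phox) and Ncf4 (p40phox) sit in the cytosol of resting cells and move to the membrane when the cell is stimulated, and a GTP-bound Rac protein, mainly Rac2 in neutrophils, completes the active enzyme. Loss of a subunit causes chronic granulomatous disease, and reactive oxygen species are among the means by which MDSCs inhibit T cells. The arrays measure transcripts, and enzyme activity depends on assembly and phosphorylation, which they do not show.

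Members of the oxidase are known targets of PU.1 and of interferon regulatory factors in myeloid cells, so the promoter sequences are shown as context. RefSeq windows (GRCm38.p6) were matched for Cybb, Cyba and Ncf1, 3 of the 6 members. They were searched on both strands for GAGGAA (a PU.1-type core), GGAANNGAA (a composite of ETS and interferon regulatory factor cores) and GAAANNGAA (a core of interferon-response elements), and capitals mark the matches. Among all 32851 windows of the same length, 28.3% held GAGGAA, 8.24% GGAANNGAA and 8.56% GAAANNGAA. The 250 bases before the listed start of Cybb (chrX:9469325-9469574, minus strand) held GAAANNGAA at 3 places, and the 250 bases before that of Ncf1 (chr5:134229626-134229875, minus strand) held it at 1.
Cybb: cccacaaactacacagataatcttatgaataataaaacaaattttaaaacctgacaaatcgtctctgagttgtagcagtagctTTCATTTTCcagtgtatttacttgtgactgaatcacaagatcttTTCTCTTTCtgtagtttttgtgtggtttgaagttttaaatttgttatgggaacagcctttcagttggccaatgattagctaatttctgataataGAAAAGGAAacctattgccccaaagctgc
Ncf1: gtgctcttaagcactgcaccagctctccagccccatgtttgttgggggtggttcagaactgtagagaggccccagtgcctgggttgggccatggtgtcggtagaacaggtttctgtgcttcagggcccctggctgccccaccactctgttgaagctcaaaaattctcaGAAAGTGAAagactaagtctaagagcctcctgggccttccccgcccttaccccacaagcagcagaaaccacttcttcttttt
A stretch of 30 bases over the listed Cybb start (chrX:9469301-9469330, minus strand) held GAGGAA and GGAANNGAA, both on the opposite strand and overlapping each other.
Cybb start: agctgctgttTTCATTTCCTCatcagaaga
The Cyba window held none of these letters. In this RefSeq annotation the listed Cybb start lies inside the span of the gene and not at its end. A match describes letters only, and binding of a factor was not measured.

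The arrays did not group by treatment, and this touches every value below. By correlation of the tested probe sets they formed 3 sets. Set A held Dactolisib 1 beside DMSO 2 and DMSO 4. Set B held 1 array of each treatment (Dactolisib 2, Dasatinib 2, DMSO 3), and Dasatinib 1 and DMSO 5 made up set C. The lowest correlation within a set was 0.99 and the highest between sets 0.98. The summed signal of 19 epithelial markers differed most between the sets. On the log2 scale it was 15.65 on Dasatinib 1 and 15.68 on DMSO 5 (set C), 13.26 to 13.46 in set A and 11.11 to 11.41 in set B. All 14 measured granulocyte markers passed the filter, and their summed signal was 51700 and 60860 under Dactolisib, 45610 and 54560 under Dasatinib and 51080 to 64380 on the DMSO arrays, on the linear scale. The brightest markers weigh most in this sum, and single markers of the list differed between the sets. The log2 signal of Ltf was 9.29 to 9.51 in set B, 12.82 to 12.94 in set A, and 12.48 and 12.30 in set C. That of Ngp was 8.82 to 8.97 in set B, 10.31 to 10.45 in set A, and 6.70 and 8.94 in set C. By contrast, S100a8 lay at 13.53 to 13.85 on all 8 arrays. The signals have no true 0, so no marker could be called absent. The 3′ minus 5′ difference of the Gapdh and Actb control probe sets lay between -0.19 and 0.15 on all 8 arrays, and no array stood apart in it. Each drug was therefore compared with DMSO in a fit without a block (2 drug arrays and 4 DMSO arrays) and in a fit with the array set as a block, called within array sets. Within array sets, Dactolisib is set against DMSO 2, DMSO 3 and DMSO 4, and Dasatinib against DMSO 3 and DMSO 5. The sets were drawn from the same signals that were then tested, so p-values within array sets may be too small. Each fit of a drug against DMSO left 2 residual degrees of freedom within array sets and 4 without the block.

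Cybb, the electron-transferring subunit, was measured by 3 probe sets. On its brightest, 1436778_at, the log2 signal was 9.54 and 10.12 with Dactolisib, 8.55 and 10.00 with Dasatinib, and 9.43, 9.96, 9.38 and 8.69 on DMSO arrays 2 to 5. The groups overlapped, and the array set ordered the values: set B lay at 9.96 to 10.12, set A at 9.38 to 9.54, and set C at 8.55 and 8.69. The other probe sets, 1422978_at and 1436779_at, followed the same pattern, with correlations of 0.993 to 0.996 among the 3 over the 8 arrays. Without the block Dactolisib minus DMSO was 0.47 ± 0.36 (SE) on the main probe set, with an interval of -0.40 to 1.34. Within array sets it was 0.15 ± 0.08 (adjusted p = 0.301), or 10.8% more signal, with an interval of -0.03 to 0.33.

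Cyba, the membrane partner that docks the cytosolic subunits, had 1 probe set. Its log2 signal was 12.40 and 12.43 with Dactolisib, 12.06 and 12.31 with Dasatinib, and 12.31, 12.33, 12.34 and 11.70 on DMSO arrays 2 to 5. The 2 Dactolisib arrays were above all 4 DMSO arrays, narrowly above DMSO 4, while DMSO 5 lay far below its group. Dactolisib minus DMSO was 0.24 ± 0.21 (SE) without the block and 0.08 ± 0.08 within array sets, and the limma adjusted p was 0.784 and 0.569. The array sets differed by more: set C minus the mean of the other 6 arrays was -0.48 for Cyba and -1.12 for Cybb.

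**Figure D1:**
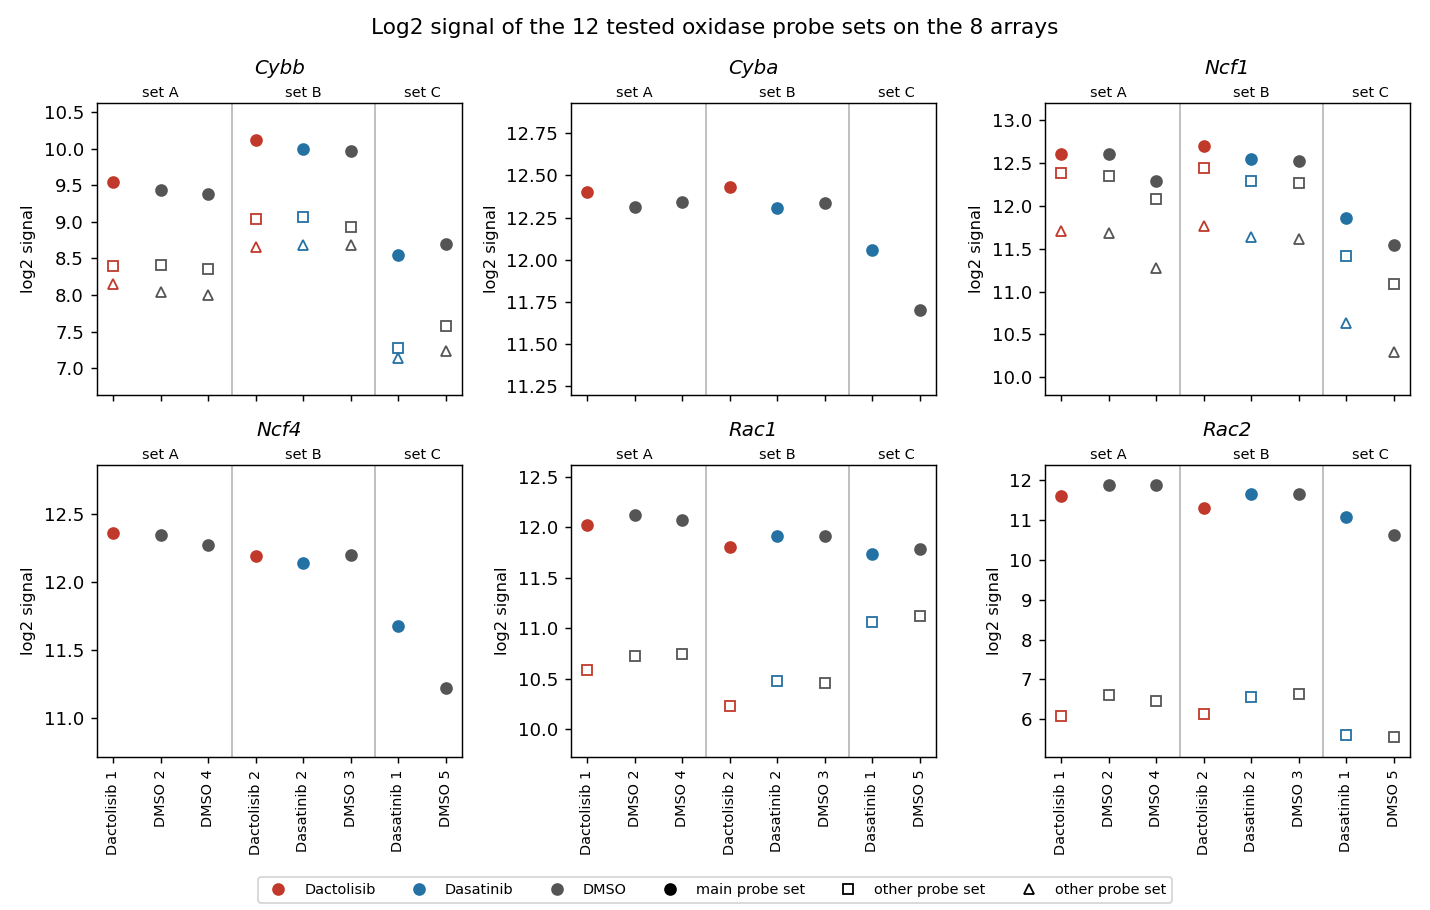
Log2 signal (y axis) of the 12 tested probe sets of the 6 oxidase genes on each of the 8 arrays (x axis), grouped by array set, with filled symbols for the main probe set and open symbols for the others. Cybb, Cyba, Ncf1, Ncf4 and Rac2 were lower on Dasatinib 1 and DMSO 5 (set C) than on the other 6 arrays, and Rac1 1451086_s_at was higher there.

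Ncf1 encodes the organizer subunit whose phosphorylation starts the assembly. On 1456772_at its log2 signal was 12.61 and 12.70 with Dactolisib, 11.85 and 12.55 with Dasatinib, and 12.60, 12.52, 12.29 and 11.55 on DMSO arrays 2 to 5. Dactolisib arrays were at the top of the range, but Dactolisib 1 and DMSO 2 were closer to each other than the 2 DMSO arrays of set A were. The fitted difference was 0.42 ± 0.30 (SE) without the block and 0.17 ± 0.11 within array sets (adjusted p = 0.78 and 0.383). On 1451767_at and 1425609_at the differences within array sets were 0.17 ± 0.10 and 0.19 ± 0.12, and neither passed.

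Ncf4 encodes p40phox, which binds a phosphoinositide of phagosomes. Its log2 signal was 12.36 and 12.19 with Dactolisib, 11.68 and 12.14 with Dasatinib, and 12.34, 12.20, 12.27 and 11.22 on DMSO arrays 2 to 5. Drug and DMSO arrays together spanned 12.27 to 12.36 in set A and 12.14 to 12.20 in set B. The difference of Dactolisib from DMSO was 0.27 ± 0.34 (SE) without the block and 0.03 ± 0.08 within array sets, which was the smallest of the 12 tested probe sets within array sets.

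Rac1 is the Rac protein of most cell types, and its tested probe sets gave different pictures. On 1423734_at the log2 signal was 12.02 and 11.81 with Dactolisib, 11.74 and 11.91 with Dasatinib, and 12.12, 11.92, 12.08 and 11.79 on DMSO arrays 2 to 5. On 1451086_s_at it was 10.58 and 10.23 with Dactolisib, 11.06 and 10.47 with Dasatinib, and 10.72, 10.45, 10.74 and 11.12 on DMSO arrays 2 to 5. Set C minus the mean of the other 6 arrays was thus -0.21 on 1423734_at and 0.56 on 1451086_s_at. The correlation of the 2 probe sets was -0.22 over the 8 arrays and 0.98 over the 6 arrays of sets A and B. Dactolisib minus DMSO within array sets was -0.09 ± 0.08 (SE) on 1423734_at and -0.18 ± 0.08 on 1451086_s_at (adjusted p = 0.543 and 0.208).

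Rac2 is the Rac protein of blood cells and the main one of the neutrophil oxidase. It had the largest differences of the members under Dactolisib within array sets, but not without the block. There its difference on 1417620_at (-0.05) was the smallest in size of the 12 tested probe sets. That on 1440208_at (-0.21) was smaller in size than those of Cybb, Cyba, Ncf1 and Ncf4. On 1417620_at the log2 signal of Rac2 was 11.61 and 11.30 with Dactolisib, 11.07 and 11.64 with Dasatinib, and 11.87, 11.65, 11.88 and 10.62 on DMSO arrays 2 to 5. On 1440208_at it was 6.09 and 6.12 with Dactolisib, 5.62 and 6.57 with Dasatinib, and 6.60, 6.65, 6.47 and 5.56 on DMSO arrays 2 to 5. Both Dactolisib arrays were below DMSO 2, DMSO 3 and DMSO 4 on both probe sets and above DMSO 5, so the groups overlapped through the DMSO array of set C.

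Against the DMSO arrays of its own set, Rac2 1440208_at differed by -0.44 on Dactolisib 1 and by -0.53 on Dactolisib 2. Within array sets Rac2 fell by 0.48 ± 0.08 (SE) on this probe set, a change of -28.2% in signal, with an adjusted p of 0.0226 and an interval of -0.67 to -0.28. On 1417620_at the difference was -0.30 ± 0.08, or -18.9% in signal (interval -0.48 to -0.12), and the adjusted p of 0.0639 missed the threshold. Without the block the differences were -0.21 ± 0.32 and -0.05 ± 0.38, with adjusted p of 0.834 and 0.969. The call on 1440208_at was lost when Dactolisib 1 was left out (adjusted p = 0.193) and when Dactolisib 2 or DMSO 3 was (0.162 each), and 0 of all probe sets passed in those fits. In bulk RNA, fewer cells of a type and less RNA per cell cannot be told apart.

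Thus 1 of the 12 tested probe sets of the oxidase passed under Dactolisib within array sets, and it was lower. Of all tested probe sets 4.2% were lower and 2.19% higher in that fit at an adjusted p under 0.05, so 1 of 12 is near the background, and it is no result about the oxidase as a group. The 8 probe sets of Cybb, Cyba, Ncf1 and Ncf4 differed by 0.03 to 0.19, all upward, with adjusted p of 0.301 to 0.886, and their intervals ran from -0.16 to 0.49. Without the block 0 of 12 passed, as did 0% of all probe sets. That fit had 868 probe sets higher and 1005 lower at an unadjusted p under 0.05, none of them of the oxidase.

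**Figure D2:**
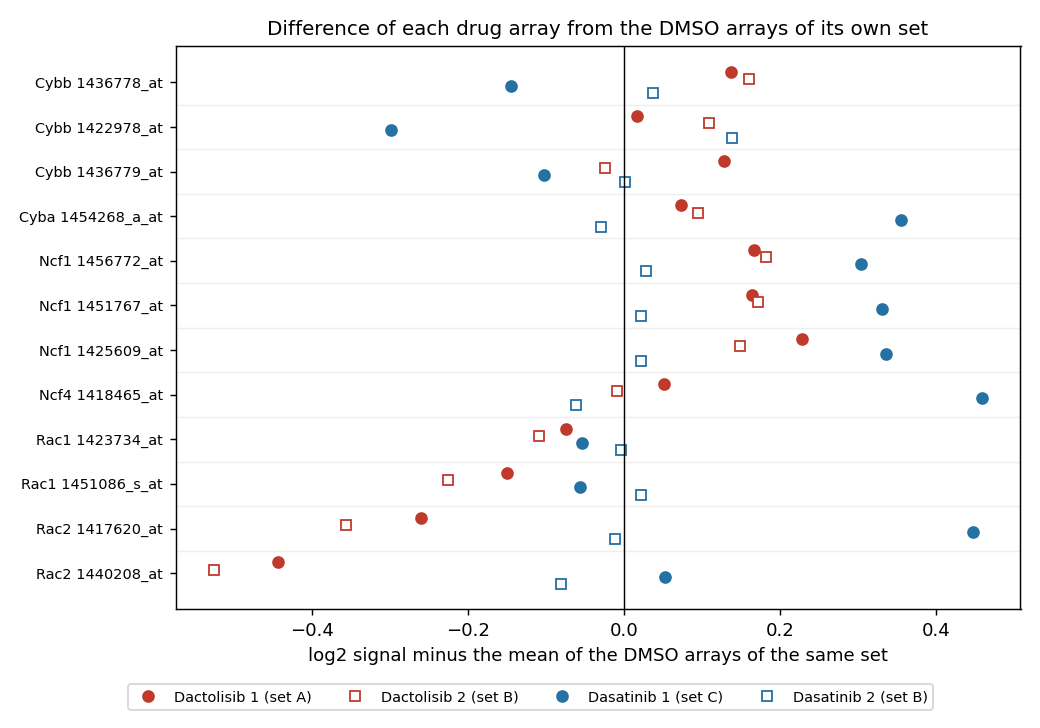
Log2 signal of each drug array minus the mean of the DMSO arrays of its own set (x axis) for the 12 tested probe sets (y axis). Both Dactolisib arrays lay below 0 on the Rac2 and Rac1 probe sets, at -0.44 and -0.53 on Rac2 1440208_at, and above 0 on all 3 Ncf1 probe sets.

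Under Dasatinib 0 of the 12 probe sets passed in either fit, as did 0% of all probe sets. At an unadjusted p under 0.05 limma gave 58 lower and 52 higher without the block and 826 lower and 638 higher within array sets, none of them of the oxidase. Within array sets the differences of the 12 probe sets lay between -0.08 and 0.22, the adjusted p was at least 0.85, and the intervals ran from -0.39 to 0.56. Without the block they lay between -0.23 and 0.01, and Ncf1, Ncf4 and Rac2 had differences of -0.04, -0.10 and -0.15 on their main probe sets, against 0.17, 0.20 and 0.22 within array sets. Without Dasatinib 2 or DMSO 3, the fit within array sets set Dasatinib 1 against DMSO 5 alone, so only the differences of that pair are given. The 2 Dasatinib arrays did not behave alike against their own sets. Dasatinib 1 exceeded DMSO 5 (set C) by 0.36 for Cyba, 0.46 for Ncf4 and 0.45 for Rac2 on 1417620_at, and by 0.30 to 0.34 on the 3 Ncf1 probe sets. Dasatinib 2 differed from DMSO 3 (set B) by -0.03, -0.06 and -0.01 for the same 3 genes and by 0.02 to 0.03 for Ncf1. Cybb went the other way in set C, with differences of -0.30 to -0.10 on its 3 probe sets between Dasatinib 1 and DMSO 5. In that pair the summed granulocyte markers were 15.48 on Dasatinib 1 and 15.64 on DMSO 5, and the summed fibroblast markers 11.39 and 12.04, on the log2 scale. Single granulocyte markers differed more between these arrays than their sum, from -2.24 for Ngp and -1.60 for Mmp8 up to 0.38 for Camp. Their part in the oxidase values was not tested.

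The drugs were also compared directly in a fit of all 8 arrays. Within array sets Dactolisib minus Dasatinib was -0.46 ± 0.11 (SE) for Rac2 1440208_at and -0.47 ± 0.13 for 1417620_at, with intervals of -0.71 to -0.21 and -0.78 to -0.16. Without the block the same differences were 0.02 ± 0.43 and 0.10 ± 0.44, so the direction rests on the block. Neither passed after adjustment within array sets (adjusted p = 0.138 and 0.195), and 0% of all probe sets did. Both had an unadjusted limma p under 0.05 (0.0028 and 0.00806), as 8.93% of all tested probe sets did in the lower direction. The other 10 probe sets had differences of -0.19 to 0.18. Without Dasatinib 2 the difference on 1417620_at was -0.75, but that fit held Dasatinib 1 as its only Dasatinib array. Against the DMSO array of its own set, Dasatinib 1 differed by 0.45 on this probe set and Dasatinib 2 by -0.01. In the other fits that left out 1 array neither Rac2 probe set passed.

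**Figure D3:**
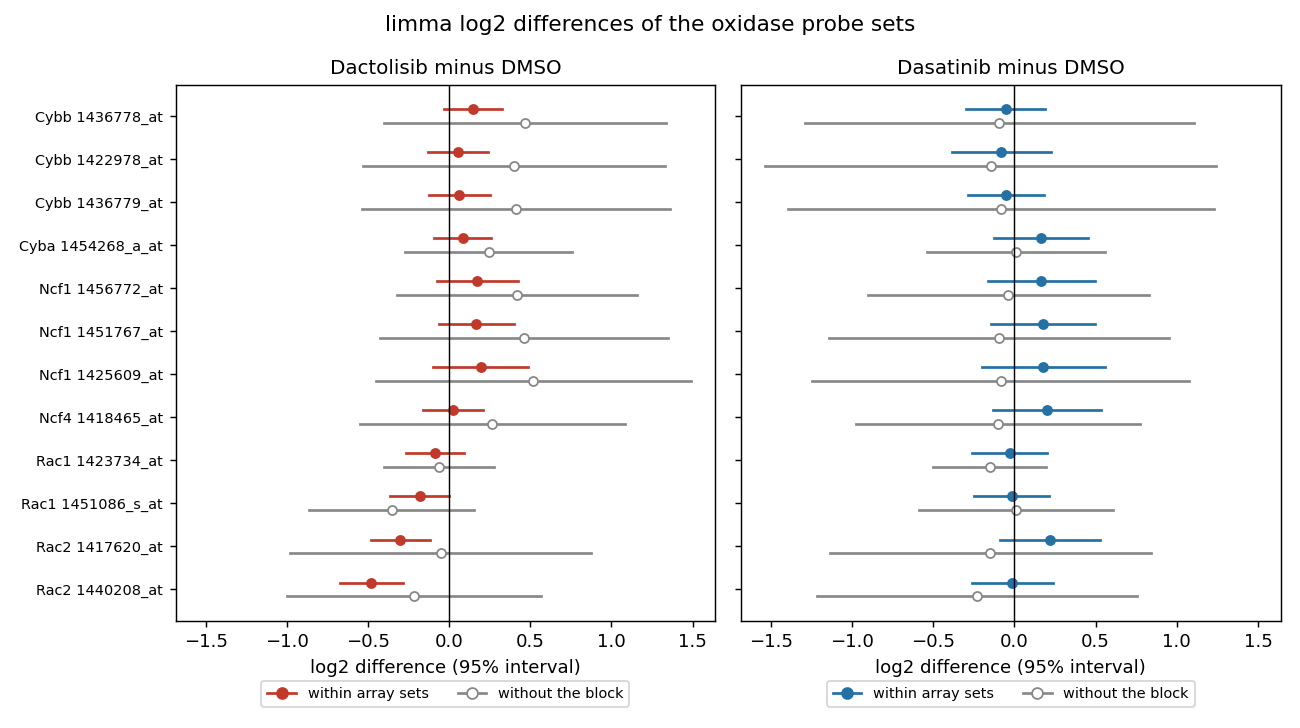
Log2 difference of Dactolisib (left) and Dasatinib (right) from DMSO with its 95% interval (x axis) for the 12 tested probe sets (y axis), within array sets (filled) and without the block (open). The intervals within array sets exclude 0 for both Rac2 probe sets and, narrowly, for Rac1 1451086_s_at under Dactolisib, and for no probe set under Dasatinib.

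On their main probe sets the members differed more between set C and the other arrays than between either drug and DMSO within array sets. Set C minus the mean of the other 6 arrays was -1.12 for Cybb, -0.84 for Ncf1, -0.81 for Rac2, -0.80 for Ncf4, -0.48 for Cyba and -0.21 for Rac1 on their main probe sets. Both arrays of set C lay below all 6 others on each of the 12 tested probe sets except Rac1 1451086_s_at, where both lay above. Cybb also separated sets B and A, by 0.58, whereas Cyba differed by 0.01 and Ncf1 by 0.09 between them. The epithelial markers were highest in set C and lowest in set B, so they ran opposite to Cybb across all 3 sets and opposite to Cyba, Ncf1, Ncf4 and Rac2 in set C. The part of epithelial RNA in these values was not tested.

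**Figure D4:**
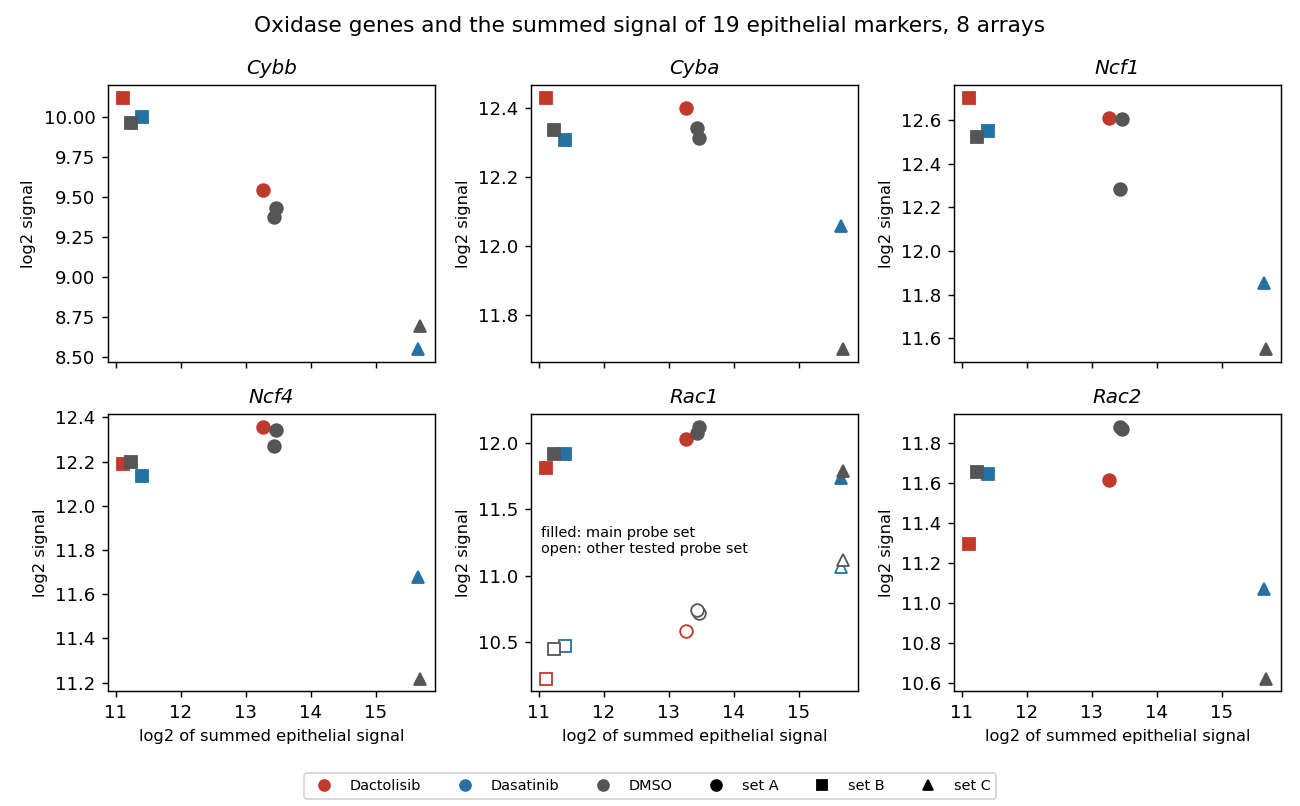
Log2 signal of each oxidase gene on its main probe set, and of Rac1 also on 1451086_s_at, (y axis) against the log2 of the summed signal of 19 epithelial markers (x axis), with 1 point per array, color for treatment and shape for array set. The arrays of set C, at 15.65 and 15.68, held the lowest values of Cybb, Cyba, Ncf1, Ncf4 and Rac2 and the highest of Rac1 1451086_s_at.

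Over the 8 arrays the main probe sets of Cyba, Ncf1 and Ncf4 correlated at 0.93 to 0.97, and Rac2 with Ncf4 at 0.93. Cybb correlated at 0.79 with Cyba and at 0.30 with Rac1. These points share 3 array sets, and much of the likeness rested on set C. Over the 6 arrays of sets A and B, Cyba and Ncf4 correlated at 0.12, Ncf1 and Ncf4 at -0.02, and Cybb and Rac1 at -0.97, while Rac1 and Rac2 stood at 0.84 over 8 arrays and 0.90 over 6. Over the same 6 arrays the separate probe sets of Ncf1 correlated at 0.98 to 0.99, those of Cybb at 0.98, and the 2 of Rac2 at 0.64.

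The genes most like each member over the 8 arrays, by Pearson correlation of main probe sets, were taken from 14237 genes. For Rac2 they were Tyrobp, the adaptor DAP12 (0.995), Arhgdib, an inhibitor that holds Rac proteins in the cytosol (0.995), and Tor4a, of the torsin family (0.995). Over 6 arrays without set C these stood at 0.991, 0.974 and 0.976. Rac1 was most like Vamp8, a SNARE of granule release (0.991), Rasgrp2, an exchange factor of Rap1 (0.988), and Lrwd1 (0.988). Cybb was most like Gadd45a, a stress-induced growth arrest gene (0.996), Edem2, of endoplasmic reticulum quality control (0.994), and Atp6v1g1, a subunit of the proton pump (0.992). Ncf4 was most like Nudt4, which hydrolyzes inositol pyrophosphates (0.998), Anapc2 and Usp2 (0.994 and 0.991). For Ncf1 they were Cog1, Il18rap and Cenpq, and for Cyba Gpank1, Bet1l and Gnpda1, at 0.99 to 0.995 over 8 arrays and at 0.78 to 0.988 without set C.

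Beyond the 6 members, 7 lists of genes around the oxidase were counted on main probe sets, 81 tested genes of 100 listed. Under Dactolisib within array sets 5 of the 81 were lower and 1 higher. Of all 14237 genes 4.66% were lower and 2.24% higher in that fit, so the counts are near the background. The calls on these genes rest on the same arrays as that on Rac2, since 0 of all probe sets passed without Dactolisib 1, Dactolisib 2 or DMSO 3. Under Dasatinib 0 of 81 passed in either fit, and without the block 0 passed under Dactolisib. In that fit without the block Pla2g4a differed by -1.03 ± 0.47 (SE), Mapk14 by -1.02 ± 0.38 and Cebpd by -0.38 ± 0.38. Cybc1 stood at -0.32 ± 0.26, Pik3cg at -0.11 ± 0.56 and Arhgap25 at 0.63 ± 0.46. These are the genes that passed within array sets. The median difference over all genes was -0.0017 within array sets under Dactolisib.

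Among 15 genes of assembly, maturation and ion supply, 2 were lower and the median difference was -0.10. Cybc1 (Eros), the chaperone that Cybb and Cyba need to reach stable protein levels, had a log2 signal of 7.72 and 7.47 with Dactolisib, 7.22 and 7.84 with Dasatinib, and 8.23, 7.89, 8.14 and 7.37 on DMSO arrays 2 to 5. Within array sets it fell by 0.45 ± 0.08 (SE) under Dactolisib, with an adjusted p of 0.0231, and it was lower on both Dactolisib arrays than on the DMSO arrays of their sets. Its clients Cybb and Cyba had differences of 0.15 and 0.08 in the same fit. Pla2g4a, the cytosolic phospholipase A2 that releases arachidonic acid, was at 5.28 and 5.44 with Dactolisib, 7.65 and 5.73 with Dasatinib, and 5.90, 6.04, 6.12 and 7.51 on DMSO arrays 2 to 5. It fell by 0.67 ± 0.10 within array sets (adjusted p = 0.0144), and both Dactolisib arrays were below all 4 DMSO arrays. Pla2g4a was highest on Dasatinib 1 and DMSO 5 (set C), where the summed epithelial markers were highest too. The part of epithelial RNA in its values was not tested. Arhgdib, listed here too, differed by -0.22 ± 0.08 and did not pass (adjusted p = 0.137).

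Kinases that act on the oxidase counted 14 tested genes, of which 2 were lower, with a median of -0.08. Mapk14, the kinase p38α, which phosphorylates Ncf1 in primed neutrophils, had a log2 signal of 8.20 and 7.40 with Dactolisib, 8.32 and 8.37 with Dasatinib, and 9.18, 8.27, 9.34 and 8.49 on DMSO arrays 2 to 5. Both Dactolisib arrays lay below all 4 DMSO arrays. Mapk14 fell by 0.98 ± 0.09 (SE) within array sets (adjusted p = 0.00941), the largest change among the 81 genes. Its probe sets disagreed: 1451927_a_at fell by 0.98 ± 0.11 and 1416704_at by 0.69 ± 0.12, whereas 1442364_at, 1459617_at and 1426104_at differed by -0.10, -0.23 and 0.13 and did not pass. Pik3cg, the catalytic subunit of the PI3-kinase that acts below chemoattractant receptors, was at 8.11 and 7.42 with Dactolisib, 6.61 and 7.87 with Dasatinib, and 8.50, 7.84, 8.52 and 6.67 on DMSO arrays 2 to 5. It fell by 0.41 ± 0.08 within array sets (adjusted p = 0.0266), and on its other probe set the difference was -0.33 ± 0.09 (adjusted p = 0.0631).

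The regulators of the GTP cycle of Rac were counted as activating proteins and exchange factors. Of 7 tested GTPase activating proteins, which switch Rac off, 1 was higher and 0 lower, with a median of 0.24. Arhgap25, a Rac-directed member of leukocytes, had a log2 signal of 9.43 and 8.93 with Dactolisib, 7.99 and 8.64 with Dasatinib, and 9.05, 8.64, 9.01 and 7.50 on DMSO arrays 2 to 5. It rose by 0.35 ± 0.08 (SE) within array sets (adjusted p = 0.0443), and its other probe set gave 0.31 ± 0.08 (adjusted p = 0.0576). Of 15 exchange factors and adaptors, which switch Rac on, 0 passed, and the median was 0.05. The 2 with the brightest probe sets, Vav1 and Swap70, differed by 0.32 ± 0.09 and 0.20 ± 0.08 (adjusted p = 0.0744 and 0.156).

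Of 11 tested transcription factors of phagocyte oxidase genes 1 was lower, and the median was 0.02. Cebpd, a C/EBP factor of the acute phase, had a log2 signal of 9.34 and 9.17 with Dactolisib, 9.13 and 9.65 with Dasatinib, and 10.08, 9.59, 10.10 and 8.80 on DMSO arrays 2 to 5. It fell by 0.60 ± 0.10 (SE) within array sets (adjusted p = 0.0189), and by 0.34 ± 0.08 on its other probe set (adjusted p = 0.0448). Spi1, which encodes PU.1, differed by -0.13 ± 0.08 and Irf1 by 0.32 ± 0.08, and neither passed (adjusted p = 0.384 and 0.0623). Of 14 receptors that trigger the oxidase 0 passed. Fpr2, a formyl peptide receptor, and Itgb2, the β2 integrin chain, had the brightest probe sets of that list and differed by -0.11 ± 0.08 and -0.21 ± 0.08. Of 5 tested further subunits and homologs of other oxidases 0 passed, among them Noxo1 (-0.08 ± 0.08) and Duoxa1 (0.13 ± 0.10).

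**Figure D5:**
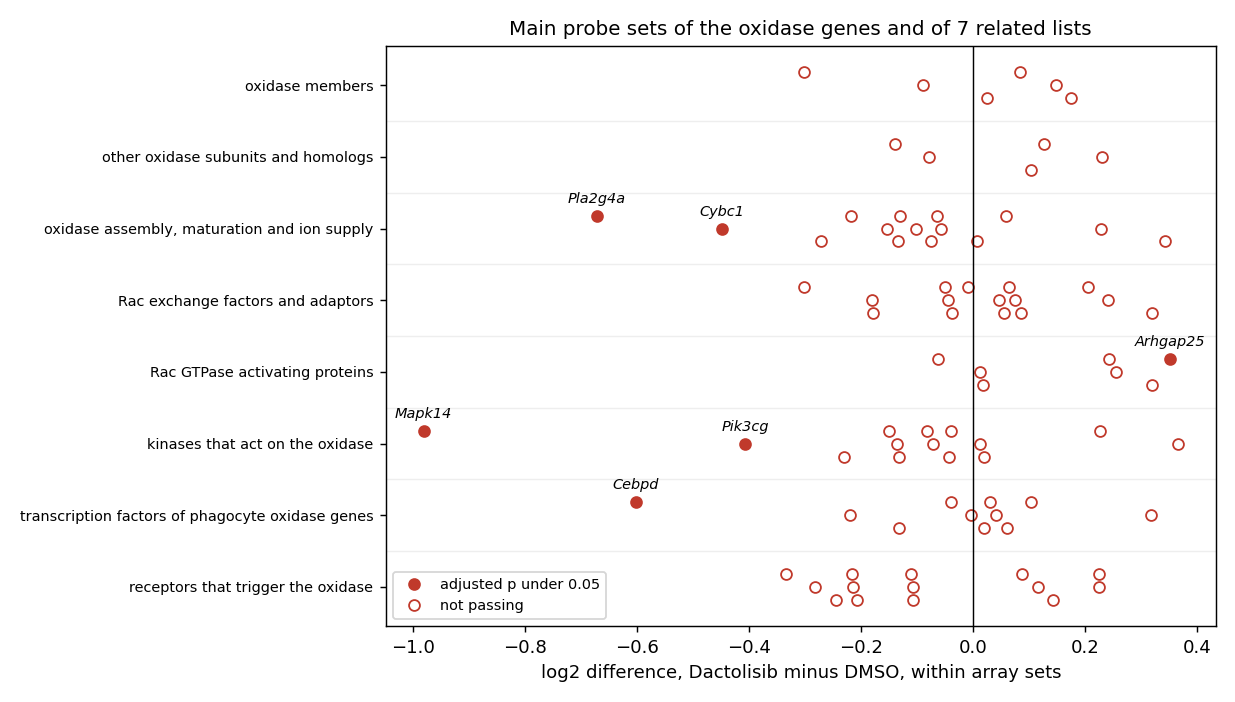
Log2 difference of Dactolisib from DMSO within array sets (x axis) for the main probe set of the 6 oxidase genes and of 81 genes in 7 related lists (y axis), with filled points at an adjusted p under 0.05. Mapk14, Pla2g4a, Cebpd, Cybc1 and Pik3cg passed on the lower side and Arhgap25 on the higher side, and 0 of the 6 oxidase genes passed on their main probe sets.

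Some markers of granulocytes, the sorted cells, and of other cells passed in the same fit, in which 4.66% of all genes were lower and 2.24% higher. Under Dactolisib within array sets 5 of 18 tested monocyte and macrophage markers were lower (Cx3cr1, C1qa, C1qc, Ly86 and Aif1, with differences of -0.75 to -0.35), with a list median of -0.19. Of 14 granulocyte markers 2 were lower, Cxcr2 (-0.55) and Mmp9 (-0.62), with a median of -0.07. Of 19 epithelial markers 2 were lower, and of 11 fibroblast markers 2. Of 7 T and NK cell markers 1 was higher, the interleukin receptor gene Il7r (0.39, adjusted p = 0.0461), and 0 passed among 7 B cell, 7 dendritic cell, 4 eosinophil and mast cell and 8 endothelial markers. On the linear scale the summed monocyte and macrophage signal was 20730 and 23880 under Dactolisib, 22990 and 23690 under Dasatinib, and 19540 to 24350 under DMSO. The summed epithelial signal was 2213 and 9798 under Dactolisib, 2719 and 51430 under Dasatinib, and 2406 to 52550 under DMSO. Their part in the Rac2 result was not tested.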

How the data were processed

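RNA of 8 Gr-MDSC samples was measured on Affymetrix mouse genome arrays, and the log2 signals of its 45101 probe sets, as the authors deposited them, were the starting point. The submitters' notes name MAS5 for these values and the methods name the oligo package, so the summary method is unsettled, and the deposited log2 values were used unchanged (array medians 4.82 to 4.87). Treatments come from the titles, because 2 samples titled Dasatinib carry Dactolisib as their treatment. The table names 34945 probe sets with 1 gene, 932 with several and 9160 with none, and 64 are controls. The 30024 non-control probe sets in the upper 67% by mean signal were tested with limma 3.58.1 in R 4.3.3 (two-sided, Benjamini-Hochberg adjustment, threshold 0.05), without a block as in the methods, and with the array set as a block, from average linkage on 1 minus the Pearson correlation. SE and 95% intervals are those of limma. A gene's main probe set is the one with the highest mean signal. Named are all members, the 3 genes most correlated with each, and from each list the genes that passed (up to 4), or else the 2 brightest. Genes named beyond this rule (Arhgdib, Spi1, Irf1) and the cell markers were chosen for their role after their values were seen. Members, lists and the block were chosen with earlier results of these data known. The calculation was tested on simulated data. Alternatives were quantile normalization, 32 added before log2, other filters, a trended and robust prior, the methods' t-test, a gene's mean probe set, another choice of arrays, and each array in turn left out. Replicate numbers are shared by 2 pairs in the comparison of the drugs only. The number of arrays limits the precision. Genes without a probe set of their own were not analysed here. A further list fixed for this comparison is not reported here.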

Additional observations from a re-analysis of the deposited data

Results flagged for a closer look

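In 3 of the 13 oxidase probe sets DMSO 5 stood far from the other 3 DMSO arrays, by the gap to its nearest neighbor over the range of the 4 arrays (Dixon's test at the 95% level). The log2 signal of Cyba was 11.7 on DMSO 5 and 12.31 to 12.34 on the others, a ratio of 0.955. That of Ncf4 was 11.22 against 12.2 to 12.34, a ratio of 0.871, and that of Rac2 1440208_at was 5.565 against 6.471 to 6.648, a ratio of 0.837. Chance alone flags about 1 in 20 such groups, and the 3 flags share 1 array. DMSO 5 belongs to array set C, whose summed epithelial markers were at 15.68 on this array, against 11.23 to 13.46 on the other DMSO arrays, on the log2 scale. The part of epithelial RNA in these values was not tested.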

How the results depend on the processing

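Counts under Dactolisib depended on the array set. Against DMSO 0 probe sets passed without the block under every setting run. Within array sets 1919 passed, after quantile normalization 1689, with 32 added to the signals 3919, with all probe sets kept 1233, in the upper 33% by mean signal 3538, with a trended and robust prior 3940 and with all 8 arrays in 1 fit 1087. The second choice was added to the array set after the data were seen. Leaving out each array gave 0 to 2854. Rac2 1440208_at passed within array sets in each of these 7 fits (adjusted p of 0.00548 to 0.0361), and Rac2 1417620_at passed with 32 added, in the upper 33% and with the trended prior. Dasatinib against DMSO gave 0 under each setting with all arrays, and 0 to 764 when each was left out, with 764 without Dasatinib 2 or DMSO 3. For Dactolisib against Dasatinib the count was 0 in both fits and 240 with 32 added, 205 in the upper 33% and 281 with the trended prior within array sets. It was 0 to 1118 when each array was left out.

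Directions of members changed as follows. Within array sets Dasatinib minus DMSO was 0.17 for Ncf1, 0.20 for Ncf4 and 0.22 for Rac2, and with quantile normalization -0.0010 for Cyba, in each case opposite to the fit without the block. Dactolisib minus Dasatinib turned within array sets for Cyba (-0.017), Ncf4 (-0.10), Rac1 (-0.074), Rac2 (-0.47) and its other probe set (-0.46). With a second choice the Rac2 probe sets were at -0.45 and -0.45 (quantile normalization) and at -0.46 and -0.33 (32 added), and at -0.47 and -0.46 under the others. Without the block it turned to -0.0063 for Rac2 1440208_at with 32 added and to -0.14 for Rac1 on the mean of its probe sets. The cause was not tested.

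Leaving out each array, over both fits, Dactolisib minus Dasatinib ranged from -0.27 to 0.36 for Cyba, -0.17 to 1.28 for Cybb, -0.13 to 0.80 for Ncf1, -0.43 to 0.60 for Ncf4, -0.095 to 0.20 for Rac1, -0.75 to 0.39 for Rac2 and -0.53 to 0.49 for its other probe set. Dactolisib minus DMSO ranged from -0.0083 to 0.38 for Ncf4, -0.17 to 0.049 for Rac1 and -0.36 to 0.11 for Rac2. Dasatinib minus DMSO ranged from -0.15 to 0.36 for Cyba, -0.82 to 0.63 for Cybb, -0.39 to 0.31 for Ncf1, -0.36 to 0.46 for Ncf4, -0.44 to 0.45 for Rac2 and -0.70 to 0.25 for its other probe set.

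With the replicate block on the 4 drug arrays 0 probe sets passed for Dactolisib against Dasatinib, and it changed no call on a member. A drug and DMSO share 1 replicate number only, so no such block could be fitted there. Only 2 arrays per drug limit the precision. Rac2 1440208_at was dim (log2 signal 5.56 to 6.65), and detection calls were not used here.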
